A study of Mus musculus with 8 samples.

Results

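The Ugt1a cluster of mouse chromosome 1, with the neighbouring genes Mroh2a and Hjurp, was described at chr1:88086828-88278644 (mm10) by the sites that the NOMe-seq libraries covered there. The described genes are 6 of the 34614 annotated genes considered: Ugt1a8, Ugt1a6b, Ugt1a2, Ugt1a1, Mroh2a and Hjurp. They were selected on measured values: their dense coverage and the difference of their treated levels between the days, in addition to their position. The treated day 1 against day 0 values and the coverage are therefore given as a description, with no test. The region held 915 to 1703 covered sites per library, of 439527 to 1012656 in the whole genome.

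NOMe-seq exposes nuclei to M.CviPI, a methyltransferase that adds a methyl group to the cytosine of GpC where the DNA is not held by a nucleosome or another protein, and bisulfite sequencing then reads the methylation. The cells were mouse embryonic fibroblasts (MEFs), either control cells (day 0) or cells on day 1 of reprogramming induced by Etv2, an ETS-family transcription factor of the endothelial and blood lineages. On each day 2 libraries received the enzyme (treated) and 2 did not (untreated), which gave 4 groups of 2 libraries. The labels give no strain, no age and no way of inducing Etv2, and do not say whether both libraries of a group are separate cultures. P-values therefore measure at most the spread between these samples, which may be technical. Those of the edgeR model used below can reflect little more than counting error. A level is the share of calls, each 1 read over 1 cytosine, that were methylated.

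UDP-glucuronosyltransferases couple lipophilic compounds to glucuronic acid for excretion, and Ugt1a1 is the enzyme that conjugates bilirubin. Each Ugt1a gene has its own promoter and first exon, and all join the same last exons, so the long genes of the cluster contain the short ones. They are best known from liver and gut, where nuclear receptors, the aryl hydrocarbon receptor and HNF1 act on their promoters. Mroh2a encodes a protein with HEAT-like repeats. Hjurp is the chaperone that places the histone variant CENP-A at centromeres, and it is used by dividing cells.

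The annotation places 9 Ugt1a genes in or across the region, 7 of which (Ugt1a10, Ugt1a9, Ugt1a7c, Ugt1a6a, Ugt1a5, Ugt1a2 and Ugt1a1) end at base 88220002. Ugt1a8 (chr1:88087828-88218998) and Ugt1a6b (chr1:88103257-88218998) end at 88218998. Ugt1a2 lies at chr1:88200611-88220002 and Ugt1a1 at chr1:88211959-88220002. Mroh2a (chr1:88226991-88262289, forward strand) and Hjurp (chr1:88258856-88277644, reverse strand) run towards each other and overlap over 3434 bp. Dnajb3, a co-chaperone gene, lies between the Ugt1a2 and Ugt1a1 starts, and 5 pseudogenes are also annotated.

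The DNA before the starts of Ugt1a1, Mroh2a and Hjurp is shown because these were the 3 starts of the region with enough reads to be tested. The sequences come from RefSeq (GRCm38.p6), 5′ to 3′ on the strand of each gene, and stop at the base before the annotated gene. Capitals mark the positions that at least 1 library measured: a capital C is a measured cytosine, and a capital G is the base opposite a measured cytosine of the other strand. Ugt1a1 is shown from chr1:88211709-88211958 (forward), Mroh2a from chr1:88226770-88226990 (forward) and Hjurp from chr1:88277645-88277829 (reverse).
Ugt1a1: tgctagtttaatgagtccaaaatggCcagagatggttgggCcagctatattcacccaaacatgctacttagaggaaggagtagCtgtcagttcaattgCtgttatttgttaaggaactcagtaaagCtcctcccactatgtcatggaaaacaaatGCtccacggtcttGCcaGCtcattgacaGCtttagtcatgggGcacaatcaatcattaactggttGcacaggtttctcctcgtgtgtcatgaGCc
Mroh2a: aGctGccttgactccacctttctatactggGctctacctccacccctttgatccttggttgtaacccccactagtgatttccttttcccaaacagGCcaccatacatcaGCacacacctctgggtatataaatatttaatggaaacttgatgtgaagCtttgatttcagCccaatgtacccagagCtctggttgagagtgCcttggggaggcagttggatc
Hjurp: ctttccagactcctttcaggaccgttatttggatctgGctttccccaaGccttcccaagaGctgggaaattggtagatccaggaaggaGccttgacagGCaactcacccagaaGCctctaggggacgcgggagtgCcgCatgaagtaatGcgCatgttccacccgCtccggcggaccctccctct

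All 66210 sites that the libraries covered in the RefSeq promoter windows of all genes, added over libraries, were cytosines of GpC not followed by G, the context in which M.CviPI methylation cannot be mistaken for CpG methylation. The bases shown before Ugt1a1 hold 30 such cytosines on both strands, of which 17 were measured, with 20 and 11 for Mroh2a and 19 and 13 for Hjurp. GC content was 44.8% before Ugt1a1, 47.5% before Mroh2a and 57.3% before Hjurp, with 2, 0 and 8 CG dinucleotides. The treated level over the positions in capitals was 24.1% of 54 calls before Ugt1a1, 22.6% of 31 before Mroh2a and 60.0% of 25 before Hjurp. Without the enzyme it was 2.56% of 39, 0 of 23 and 0 of 24 calls. Of the 25 treated Hjurp calls 22 came from 1 library of day 0 (13 methylated), so these promoter values cannot be compared between days.

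Motifs were searched on both strands of the 300-base promoter windows, after the sequences had been seen. The ETS letters CCGGAAGT occurred in 3.89% of the 32851 promoters and, among the promoters of the region in the table, only in that of Hjurp. There they lay 42 bases before the transcript start used by that table, which is inside the annotated gene and past the bases shown above. The HNF1 half-site GTTAAT occurred in 7.10% of promoters. It was present on the reverse strand of the Ugt1a1 promoter (41 bases before the start, within the bases shown) and of the Ugt1a6a promoter. GCGTG, the core bound by the aryl hydrocarbon receptor, occurred in 32.4% of promoters, Ugt1a8 and Ugt1a5 among them. A match describes letters only.

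Coverage split the cluster at the start of its last member. Of the 39 steps of 5 kb across the region, 14 had at least 10 covered sites in all 8 libraries, and these were the last 14, from base 88211828, next to the Ugt1a1 start, to the end of the region. In the other 25, which hold the starts of Ugt1a8, Ugt1a6b and Ugt1a2, a library covered 0.0960 to 0.704 sites per kb. In the dense part it covered 13.5 to 24.2 sites per kb, against 0.438 to 1.28 in 400 kb of flank, a ratio of 18.9 to 30.8. Only 247 of 544476 such steps of the genome were as dense (0.0454%). The stretch ran past the region to base 88291827, and its 80 kb equalled the longest other stretch, the one at Sfi1 on chromosome 11. Past base 88291827 coverage went on in places and fell away near the start of Trpm8, a cold-sensing ion channel gene. The flank on that side takes in these bases, which lowers the ratio. That side held 0.670 to 1.88 sites per kb, and the side before the region 0.165 to 0.745. Just outside the region, in the rest of the stretch (13.2 kb), treated levels were 24.3% and 29.0% on day 0 and 25.9% and 26.2% on day 1. The cause of the coverage was not tested.

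**Figure D1:**
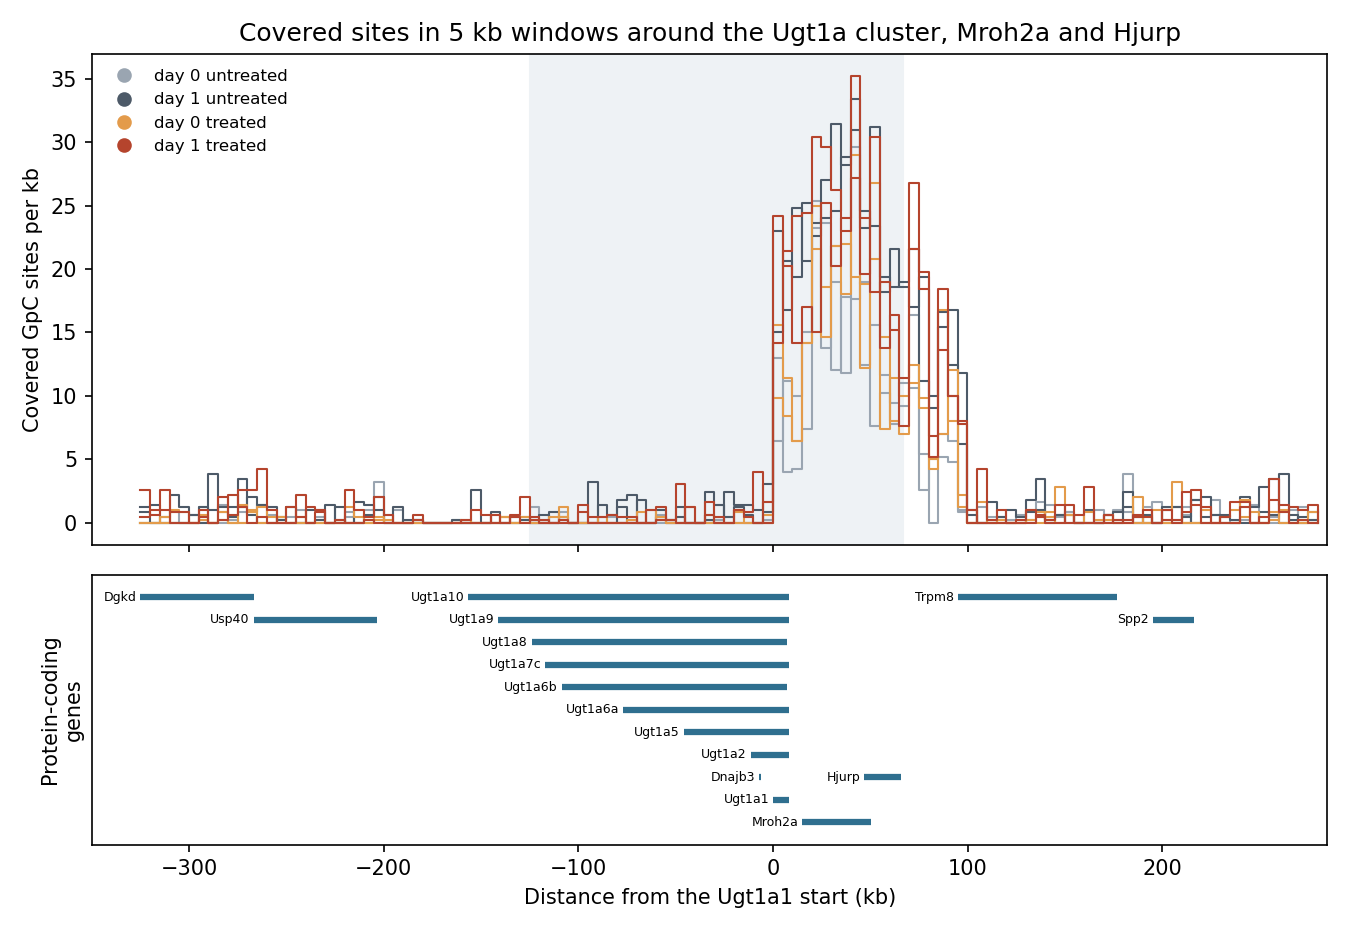
Covered GpC sites per kb in 5 kb steps (vertical axis) against distance from the Ugt1a1 start in kb (horizontal axis), 1 line per library, coloured by group, with the region shaded and protein-coding genes as bars below. All 8 lines rise together at the Ugt1a1 start and stay high over Mroh2a and Hjurp. The longer part of the Ugt1a cluster is sparsely covered, at 0.0960 to 0.704 sites per kb. That is below the 400 kb of flank, pooled over both sides, in each library. The 200 kb before the region alone held 0.165 to 0.745 sites per kb. Against it the sparse part was higher in some libraries and lower in others.

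The dense part was covered by many thin stretches. Each library covered it in 100 to 112 separate runs of sites less than 150 bp apart. The deepest site had 6 to 9 reads, and 58.6% to 71.1% of sites had exactly 3 reads, the fewest in the files, against 87.7% to 89.3% in the rest of chromosome 1. The libraries mostly read different positions: of 5085 positions covered in any library, 2084 were covered in 1, 22 in 6 and none in 7 or 8. Day 1 libraries covered more of it (1390 to 1618 sites) than day 0 libraries (901 to 1103), as they did of the genome. Values of a gene in different libraries thus rest largely on different cytosines, and a level per gene pools them.

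For the Ugt1a genes this means that their values describe the shared 3′ part. Of the calls within 1000 bp of either end of Ugt1a8, Ugt1a6b and Ugt1a2, 97.1%, 97.1% and 96.1% came from the transcript end. At the starts of Ugt1a8, Ugt1a6b and Ugt1a2 the libraries held 18, 18 and 30 calls in all. No site was covered in the RefSeq promoters of Ugt1a7c, Ugt1a6a, Ugt1a5 and Ugt1a2. Ugt1a1 was the Ugt1a gene with a well covered start, with 849 calls there and 733 at its end. Mroh2a had 491 calls at its start and 1055 at its end, and Hjurp 1204 and 937.

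M.CviPI raised the level over the whole region on both days. Untreated libraries read 1.67% and 2.12% on day 0 (3356 and 3115 calls) and 1.56% and 1.30% on day 1 (6156 and 6012 calls). Treated libraries read 28.1% and 26.4% on day 0 (3721 and 3875 calls) and 29.1% and 29.6% on day 1 (5122 and 5682 calls). No treated library overlapped an untreated one. The mean difference was 26.6 percentage points (exact two-sided permutation within days, p = 0.056, the smallest possible), and it was 25.4 points on day 0 and 27.9 on day 1 (exact permutation p = 0.333 on either day, which 2 against 2 libraries cannot go below). In the rest of chromosome 1 the difference was 27.4 points.

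The loci of all 6 described genes (each gene and 1000 bp on both sides) rose with the enzyme. The model was edgeR's quasi-likelihood test on methylated and unmethylated calls over 7993 gene loci, and 99.9% of them passed (Benjamini-Hochberg adjusted p under 0.05, all upward), so the call does not set the genes of the region apart. The log2 odds of methylation rose by 4.82 (SE 0.14) at Mroh2a, 4.19 (SE 0.18) at Hjurp and 4.89 (SE 0.31) at Ugt1a1. At Ugt1a2, Ugt1a8 and Ugt1a6b, whose loci contain most of the same calls, the rises were 4.96, 4.47 and 4.49. The median over all loci was 5.04. In limma, which estimates the spread between libraries, adjusted p was 3.54e-13 for Mroh2a, 2.13e-11 for Hjurp and 6.22e-10 for Ugt1a1.

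Gene ends gave the same direction. Among 144 genes with at least 10 calls at their ends in every library, 99.3% rose (edgeR, adjusted p under 0.05), and so did the 11 tested genes of the region. The rises in log2 odds were 5.03 (SE 0.50) at Ugt1a1, 4.90 (SE 0.47) at Mroh2a and 4.26 (SE 0.38) at Hjurp. For starts alone 30 genes of the genome could be tested and 96.7% rose, including Ugt1a1 by 4.17 (SE 0.60), Mroh2a by 4.01 (SE 0.72) and Hjurp by 4.39 (SE 0.54). All 14 dense steps rose, by 3.75 to 5.09, among 996 steps of the genome of which 99.5% rose. In each of the 14, every treated library lay above every untreated one, as in 232 of 233 dense steps elsewhere (99.6%).

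The level of the dense part was close to that of the chromosome. Treated libraries differed from the rest of chromosome 1 by -2.09 to -0.0252 points, below it in 4 of 4 libraries, with a mean difference of -0.682 points ± 0.954 (SD, n = 4; exact sign-flip permutation p = 0.13, the smallest possible). For the whole region, sparse part included, the mean difference was -0.669 points (p = 0.25, exact) and 1 of 4 libraries lay above. It was -0.252 points without the second day 0 treated library, and 1.78 points, the other direction, over sites with at least 5 reads. Untreated libraries differed by 0.0704 points (exact p = 0.875), and by -0.0943 and -0.0383 points without the first and the second day 1 library. Among loci, treated Ugt1a1 differed from Mroh2a by -3.83 points on average (below in 3 of 4 libraries) and Hjurp 0.0551 points above it. Neither passed the test (exact sign-flip p = 0.25 and p = 1), which does not show that the loci are alike.

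Starts were also set beside bodies, with an exact sign-flip test over 4 libraries that cannot go below p = 0.13 and so does not show that they are alike. The treated Hjurp start differed from the Hjurp body by 5.96 points ± 9.19 (SD, n = 4; exact sign-flip p = 0.5). It lay above the body in both day 0 libraries and below it in both day 1 libraries, so this SD holds the difference between the days, which was used to choose the genes. Ugt1a1 differed by -0.0579 points ± 4.14 and Mroh2a by -4.54 points ± 13.7 (exact p = 1 and p = 0.375).

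**Figure D2:**
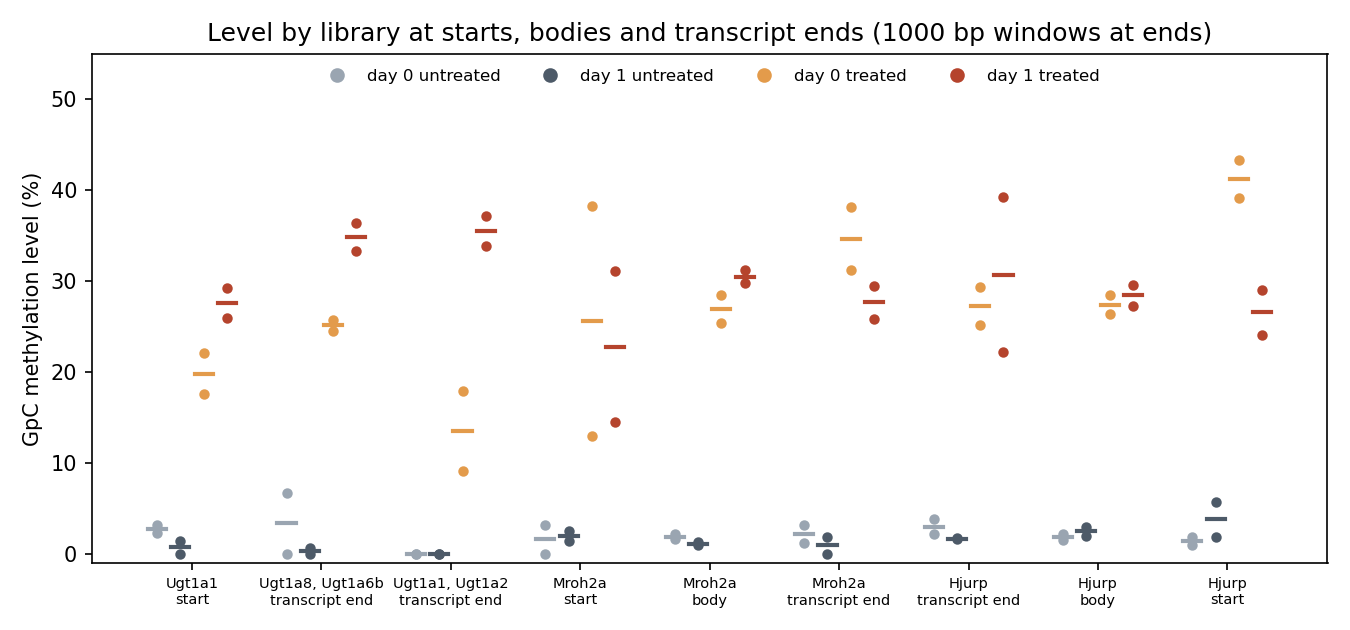
GpC methylation level in percent (vertical axis) of each library at the starts, bodies and transcript ends of the genes (horizontal axis), coloured by group, where a bar is the mean of the 2 libraries. Untreated points lie near 0, treated Ugt1a ends and Hjurp starts lie apart on the 2 days, and the treated Mroh2a start spreads from 12.9% to 38.2% within day 0.

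The transcript end shared by Ugt1a1, Ugt1a2 and 5 other Ugt1a genes had the widest gap between the day means among the starts and ends in the plot of levels by library. Its 4 untreated libraries had no methylated call: 0 of 98 calls on day 0, which allows a level of up to 3.06%, and 0 of 262 on day 1, which allows up to 1.15% (counting error only). Treated levels were 17.9% and 9.09% on day 0, from 39 and 22 calls, and 33.9% and 37.1% on day 1, from 118 and 194 calls. Both day 1 libraries lay above both of day 0. At the 11 positions that a treated library covered on both days the level was 11.1% of 36 calls and 33.3% of 36 calls.

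The transcript end of Ugt1a8 and Ugt1a6b lies 1004 bp upstream, and its window shares 997 bp with the one above. Its treated libraries read 24.5% and 25.8% on day 0 and 33.3% and 36.4% on day 1. The shared bases gave none of its treated calls on day 0 and 37 and 33 on day 1. Outside them the levels were 24.5% and 25.8%, then 28.6% and 40.9% (56 and 44 calls), so both day 1 libraries lay above both of day 0 there too. At the Ugt1a1 start the treated levels were 17.5% and 22.1% on day 0 (57 and 86 calls) and 26.0% and 29.2% on day 1 (131 and 106 calls). Positions covered on both days gave 11.1% of 45 calls and 38.8% of 67 calls. The Ugt1a1 locus as a whole read 19.5% and 24.4% on day 0 and 26.3% and 29.5% on day 1. The body between its ends read 20.4% and 26.0%, then 24.5% and 24.2%, and there the days overlapped.

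Hjurp moved in the other direction at its start. Treated libraries read 43.4% and 39.1% on day 0 (113 and 133 calls) and 24.1% and 29.0% on day 1 (108 and 124 calls), so both day 1 libraries lay below both of day 0. The covered bases were not the same: the 400 bases from the start into the gene gave 47 and 102 calls on day 0 but 30 and 18 on day 1. The levels there were 44.7% and 40.2%, then 40.0% and 0%, so the gap in these bases rests on the second day 1 library. Over the RefSeq promoter window, with 3 to 22 treated calls per library, day 1 was the higher: 59.1% and 33.3%, then 75.0% and 66.7%. At the 24 positions covered on both days the level was 34.1% of 88 calls and 20.3% of 79 calls, a smaller gap in the same direction. At its other end Hjurp read 29.3% and 25.2% on day 0 and 39.2% and 22.2% on day 1, where the day 1 libraries enclosed those of day 0. The Hjurp locus read 29.9% and 27.7%, then 28.6% and 29.0%.

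Mroh2a held most of the calls of the region, 2181 to 3671 per library over its locus. The locus read 28.8% and 25.7% on day 0 and 31.0% and 29.4% on day 1 with the enzyme, with the day 1 libraries above those of day 0. At its transcript end the treated libraries read 38.1% and 31.2% on day 0 and 25.8% and 29.5% on day 1, so the end lay lower on day 1 while the locus lay higher. Over the 33 end positions covered on both days the levels were 37.5% and 32.7%. Its start held 31 to 119 treated calls per library and read 12.9% and 38.2%, then 31.1% and 14.5%, with as much spread inside a day as between the days. The stretch where Mroh2a and Hjurp overlap read 28.4% and 25.6% on day 0 and 37.7% and 31.2% on day 1.

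Along the dense part the treated day 0 libraries ranged from 17.1% to 43.4% per step and the day 1 libraries from 21.9% to 37.8%. Both day 1 libraries lay above both of day 0 in 6 of 14 steps and below in 2. Elsewhere 41.6% and 7.30% of the dense steps did so, and since this contrast chose the genes nothing is read from these counts. Of the 6 steps, 4 follow each other from 5 to 25 kb past the Ugt1a1 start, from the shared Ugt1a transcript end to the 5′ part of the Mroh2a body, with day 0 at 21.6% to 27.4% and day 1 at 24.9% to 36.1%. The 2 steps below were the one 35 to 40 kb past that start, in the Mroh2a body (31.7% and 27.9%, then 25.0% and 26.0%), and the last, shorter one at the Hjurp start. The low Ugt1a1 and high Hjurp values of day 0 thus sat at opposite ends of the dense part.

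**Figure D3:**
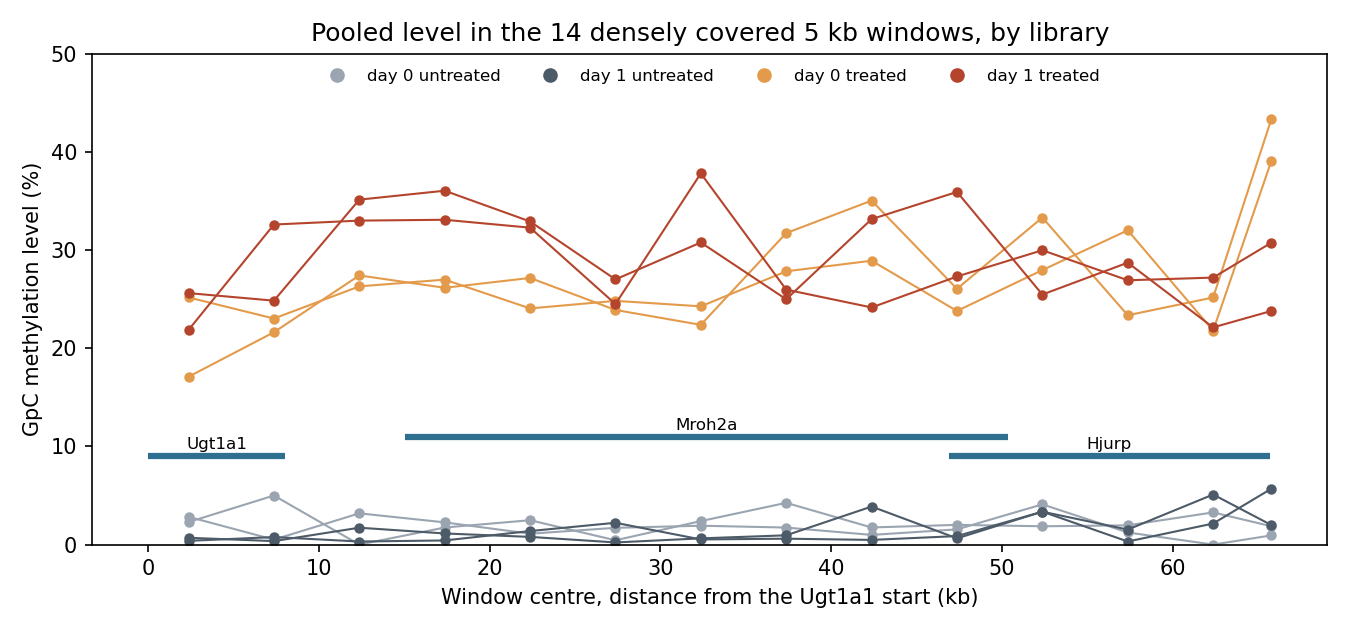
GpC methylation level in percent (vertical axis) in the 14 dense steps against distance of each step's centre from the Ugt1a1 start in kb (horizontal axis), 1 line per library, coloured by group, with the 3 genes as bars. Treated lines run between 17.1% and 43.4% and untreated lines between 0% and 5.69%; day 0 treated lines are highest in the last step, at the Hjurp start.

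Untreated levels show the background of the readout on each day. Over the region they changed by -0.465 points from day 0 to day 1 (exact permutation p = 0.333, the smallest possible), and over the rest of chromosome 1 by -1.29 points. The change in the region was -0.240 points without the second day 0 library, -0.690 without the first, and -1.15 over sites with at least 5 reads. Among 10512 gene loci edgeR called 1.36% (adjusted p under 0.05, all downward) and none of the 11 loci of the region. Its unadjusted p was under 0.05 at 9 of the 11, beside 1262 of the 10512. Limma called 7.87% of all loci and 8 of the 11, each a Ugt1a locus that was lower on day 1. The Ugt1a loci contain each other, so these 8 calls, and the 9 loci above, are not independent.

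The fitted change was -1.96 in log2 odds (SE 0.72) at Ugt1a1 (edgeR adjusted p = 0.162, limma 0.0206), where untreated libraries read 1.37% and 2.94% on day 0 and 0.595% and 0.476% on day 1. It was -0.75 (SE 0.24) at Mroh2a (edgeR adjusted p = 0.0814), at 1.57% and 2.06%, then 1.31% and 0.872%. Without the first day 1 untreated library Mroh2a passed the edgeR test, with a change of -1.06. The median over all loci was -0.88. Of the 14 dense steps edgeR and limma called none, beside 0.519% and 0.628% of 4620 steps of the genome. Their unadjusted p was under 0.05 at 3 and 6 of the 14, beside 149 and 329 of the 4620.

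Hjurp was the exception in direction. Its untreated locus read 1.56% and 2.15% on day 0 and 2.39% and 2.62% on day 1, a fitted change of 0.43 (SE 0.33, edgeR adjusted p = 0.628) that did not pass the test. Runs of sites with at least 6 methylated calls in 1 library were looked up after these values were seen. Hjurp had 2 in the first day 1 library, with 23 of its 45 methylated calls, and 1 in the second, with 9 of 42. The day 1 libraries also held more calls over Hjurp (1885 and 1601, against 770 and 885), so such runs could be met there more easily. The Hjurp runs had 9 methylated of 173 calls, 14 of 225 and 9 of 49. There the other untreated libraries had 7 of 173, 5 of 302 and 0 of 20. Such runs were not particular to Hjurp. Mroh2a, whose untreated mean was lower on day 1, also held one in the first day 1 library. It had 14 methylated of 148 calls, against 4 of 386 in the other untreated libraries. The untreated Hjurp start read 0.935% and 1.87% on day 0 and 5.69% and 1.88% on day 1, and the 5.69% belongs to the library with 1 such run there.

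**Figure D4:**
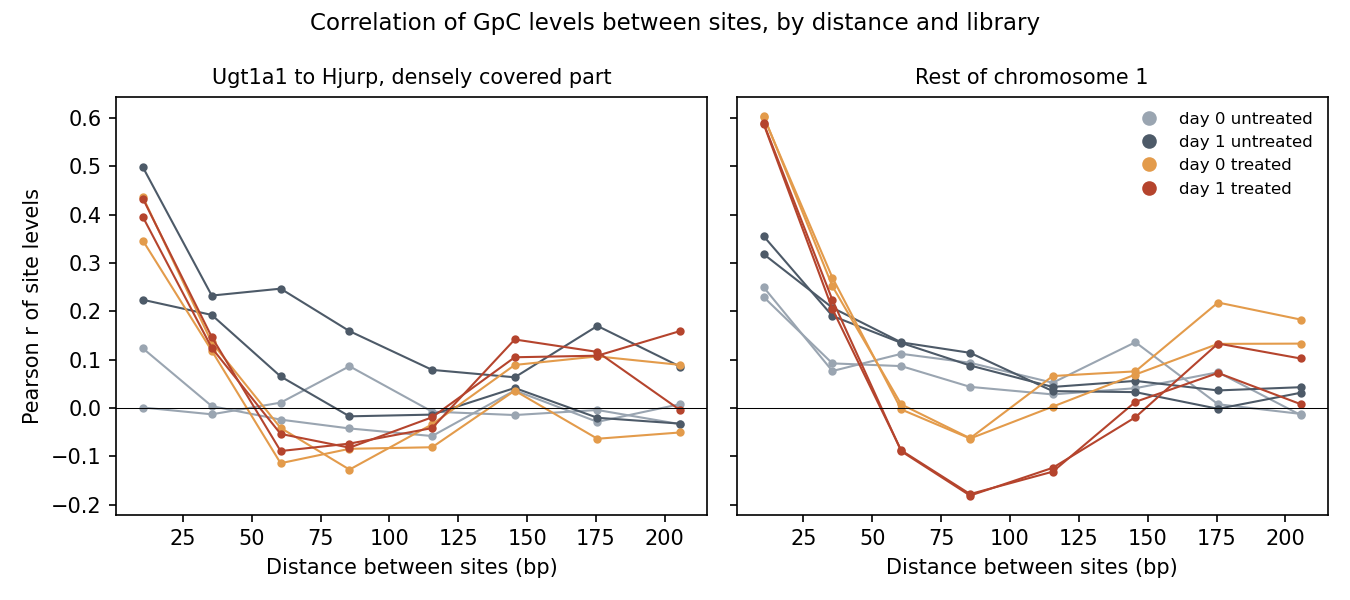
Pearson correlation between the levels of pairs of sites of 1 library (vertical axis) against their distance in bp (horizontal axis), in the dense part (left) and the rest of chromosome 1 (right), 1 line per library. Treated lines start at 0.346 to 0.436 in the dense part and lie below 0 from 51 to 100 bp.

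Neighbouring sites resembled each other over short distances. In the dense part sites 1 to 20 bp apart had a Pearson correlation of level of 0.436 and 0.346 in the treated day 0 libraries and 0.395 and 0.433 in those of day 1, over 1213 to 1934 pairs. In the rest of chromosome 1 it was 0.588 to 0.605. At 71 to 100 bp the treated correlation was below 0 in all 4 libraries, from -0.127 to -0.0735, and at 161 to 190 bp it was 0.107, -0.0635, 0.108 and 0.116. Without the enzyme, sites 1 to 20 bp apart correlated at 0.00109 and 0.123 on day 0 and at 0.498 and 0.224 on day 1. The untreated values in the rest of chromosome 1 lay closer together, at 0.230 and 0.250, then 0.356 and 0.318. In the library at 0.498, 3 runs with at least 6 methylated calls held 37 of its 93 methylated calls in the dense part. Pairs within a library share reads and depth, so these values are a description.

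By the levels at both ends over the 8 libraries, the genes most like each described gene were sought among 38 genes outside the region with at least 20 calls per library. The nearest to Ugt1a1 was A530040E14Rik (root mean square difference 2.61 points) and to Ugt1a2 Gm15756 (4.23 points). Gm40904 was nearest to Mroh2a (2.74 points), Sfi1 to Hjurp (4.15 points), and Gm33862 to both Ugt1a8 and Ugt1a6b (2.79 and 3.54 points). The median difference over the 38 genes was 7.43 points for Ugt1a1 and 9.59 points for Hjurp.

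Genes that work with the described ones elsewhere in the genome were read from the same fit, in which 99.9% of all loci rose with the enzyme. Of the other glucuronidation and bilirubin genes 3 loci could be tested for the enzyme and 3 rose, with a median change of 4.69 in log2 odds. The same held for 7 of 7 regulators of Ugt1a genes (median 4.77), 7 of 7 partners of Hjurp in CENP-A deposition and the kinetochore (median 5.29) and 8 of 8 other Mroh genes (median 4.67), all beside 5.04 over all loci. Without the enzyme edgeR called none of the 9, 10, 8 and 8 testable loci of these lists between days, beside 1.36% of all loci. Limma called 0, 0, 2 and 1 of them, beside 7.87%. The unadjusted edgeR p was under 0.05 at 0, 0, 1 and 1 of them, beside 1262 of 10512 loci. Fibroblast marker genes had calls at the ends of 4 to 10 of 14 genes, with treated levels of 50.7% and 54.1% on day 0 and 33.3% and 40.1% on day 1. The 8 endothelial markers read 34.6% and 40.0% on day 0 and 40.0% and 14.3% on day 1, from 15 to 81 treated calls. Each level pools whichever markers a library covered, in the treated ones 4 to 8 fibroblast and 2 to 3 endothelial genes. The levels of the 2 days therefore rest on different genes, and no change between the days is read from them. The 6 hepatocyte markers had 0 to 36 calls per library, too few for a comparison.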

How the data were processed

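The authors deposited for each library the GpC cytosines with at least 3 reads, on mm10 per the labels. Per the values, 1 deposited column is the methylated fraction of reads and the next the read count. Aligner, caller and duplicate handling were not given in the sources used here. Methylated calls were the rounded product of fraction and count, whole within 0.005 of the fraction at 100% of sites. Libraries were grouped by day and enzyme from the labels. Genes and strands came from RefSeq (GRCm38.p6).

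Calls were summed per library over the region, 5 kb steps, gene loci and gene ends (1000 bp on each side). Features with at least 10 calls per library were fitted in edgeR 4.0.16 (quasi-likelihood, library and group by methylation terms, all 8 libraries) with limma 3.58.1 on log2 odds with a pseudocount of 1 as an alternative (R 4.3.3), with Benjamini-Hochberg adjustment over all features. On simulated data over the 7993 loci of the enzyme comparison edgeR found 92% of changes of 2 in log2 odds and 100% of changes of 4. Over the 10512 loci of the untreated comparison it found 10% and 81%. The simulation assumed an SD of 0.3 between libraries in natural log odds. Its unchanged levels lay above those of the untreated libraries in the region, so these shares are not the power for the described genes. Other values were compared by exact two-sided permutation over libraries. The edgeR p-values reflect little more than counting error where the fitted dispersion is near 0.

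The genes and lists were chosen with earlier results of these data known. All 6 genes are named, and the most similar genes by the rule given with them. Replicate numbers did not pair the libraries (correlations of the differences between replicates over 5655 loci were -0.0241 to 0.0193). Coverage minimum, deep sites, filters, tools, scaling, a replicate block and left-out libraries were varied. The context of sites outside the promoter windows was not checked.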

Additional observations from a re-analysis of the deposited data

How the results depend on the processing

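The direction of the enzyme effect held for the region and for the 6 genes under every alternative, except for Hjurp when each library was centred on its median. Limma on centred values, which removes the common rise by construction, called 34 loci, 8 gene ends and 127 steps in the genome, and 0 loci, 0 ends and 4 steps of the region, with Hjurp at -0.035 in log2 odds. With sites of at least 5 reads only, the enzyme effect of the region was 27.7 points, the untreated day difference -1.15 points, and the treated difference from the rest of chromosome 1 turned to 1.78 points. That filter left 87 loci, 20 gene ends and 201 steps called in the genome, 6 steps in the region, and 3 loci for the untreated day effect, where Hjurp stood at -0.13. A minimum of 20 calls called 43 gene ends (5 in the region) and 392 steps, and no filter 12326 loci, 755 ends and 5068 steps. Ends of 500 bp gave 23 calls, 3 of them in the region, and starts alone, added later, 29. These counts follow the number of features tested.

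For the untreated day effect the loci called were 827 with limma (8 in the region), 512 with a pseudocount of 0.5 (8 in the region) and 6 after centring, under which Mroh2a stood at 0.20. The cause was not tested. With the replicate block, where the numbers do not pair the samples, 93 of these loci were called, 0 in the region, and the enzyme effect of the region was 26.6 points; the block changed no other call by over 1.5 times. Leaving out 1 library at a time gave 24 to 101 loci and 0 to 23 steps for the untreated day effect, with 0 to 1 locus in the region, and 174 to 216 gene ends for the enzyme effect. The enzyme effect of the region then ran from 26.2 to 27.1 points. The untreated difference from the rest of chromosome 1 ran from -0.0943 to 0.264 points, with -0.0383 without the second day 1 untreated library and -0.0943 without the first.

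The treated day differences of the Ugt1a ends and start and of the Hjurp start kept their direction. Leaving out 1 library could not reverse them, because both day 1 libraries lay on the same side of both day 0 libraries. The same contrast chose the genes, so nothing is read from this. Their direction was also the same at positions covered on both days. At the Mroh2a start the difference ran from -15.5 to 9.87 points over left-out libraries and became 9.87 points without the second day 0 library, 5.52 without the second day 1 library and 4.44 at positions covered on both days. At the Hjurp transcript end it ran up to 11.9 points and became -5.03 points without the first day 1 library. At the Hjurp locus it ran down to -1.14 points and became 1.02 points without the first day 0 library, 0.126 without the first day 1 library and 2.02 at shared positions. Depth limits the values of single ends, which rest on 0 to 266 calls per library for the 6 genes.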
